A study of Mus musculus with 6 samples.

Results

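The genes described here are 9 costimulatory molecules of T cells, 8 receptors of the TNF receptor and CD28 families and the TNF family ligand Cd40lg: Tnfrsf4, Tnfrsf9, Tnfrsf18, Tnfrsf1b, Tnfrsf25, Icos, Cd28, Cd27 and Cd40lg. They were chosen by name, as 9 of the 32285 genes counted in both expression matrices. The cells were T cells sorted as CD3+ with CD4 or CD8 from intracranial tumors of CT2A, a mouse glioma line, grown in wild-type C57BL/6J mice of 6 to 8 weeks. Tumors were taken at day 13 (16 mice, pooled 4 to a replicate) or day 19 (4 mice), and no other treatment is given in the labels. Each day is 1 capture of 10x 5' single-cell chemistry with expression, antibody tag and T cell receptor (TCR) libraries, so day, capture and staining cannot be told apart and no test over samples is possible.

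A costimulatory receptor adds a signal to that of the TCR. The TNF receptor family members bind trimeric ligands on antigen-presenting cells and recruit TRAF adaptors, which lead to NF-κB, whereas CD28 and ICOS bind B7-type ligands and signal through their own tails. In tumors these receptors are known from agonist antibodies, and several are typical of regulatory T cells or of recently stimulated T cells.

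The cells used were barcodes with an assembled TCR contig, at least 5000 gene UMIs (unique molecular identifiers, each 1 captured molecule), at most 10% mitochondrial UMIs and at most 3 UMIs of C1qa, Lyz2 and Csf1r together. These were 3775 barcodes at day 13 and 2159 at day 19, with medians of 7126 and 8792 UMIs. Cells with Cd8a or Cd8b1 UMIs but no Cd4 UMI were taken as CD8 T cells (2646 at day 13 and 1436 at day 19). Those with the opposite pattern, CD4 T cells, were divided by a UMI of Foxp3, the regulatory T cell factor, into Foxp3- (349 and 252) and Foxp3+ cells (150 and 125). The 630 and 346 cells with both coreceptors or neither were left out. All 5 T cell markers were detected in each class, with summed levels from 2457 to 3612 CPM (UMIs of a gene per 1e6 gene UMIs of the summed cells), and Foxp3, Il2ra and Ikzf2 summed to 1147 and 1372 CPM in Foxp3+ cells at day 13 and day 19. Of this, 469.6 and 484 CPM were Foxp3, which defined the class; in Foxp3- cells the list summed to 143 and 201 CPM. A cell without a Foxp3 UMI can still be a regulatory cell, and 2.31% and 1.95% of CD8 cells held a Foxp3 UMI at day 13 and day 19.

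Each day has 4 TCR tables, whose barcodes are called contig sets here. The sets held 4.15418e+06 to 1.18589e+07 gene UMIs at day 13 and 2.06614e+06 to 1.21043e+07 at day 19. Which mice a set holds is not stated. Of clonotypes with 2 or more cells, 5.22% at day 13 and 27.3% at day 19 were also seen in another set, so sets are given as ranges and not as replicates. Day 19 set 1 held 7 Foxp3- and 5 Foxp3+ cells and is left out of the ranges in these classes unless named. The used cells of the days shared 13 barcodes.

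Levels below are CPM of summed UMIs, and ratios are log2 of CPM with exact 95% Poisson intervals, which cover counting error only. A gene was called in a comparison when it differed at least 1.5-fold and had at least 50 UMIs in both sums together. Shares of cells with a UMI come from cells thinned to 5000 UMIs. As background, 211 and 92 macrophage-like barcodes (10 or more C1qa UMIs, outside the TCR tables, medians 8246 and 9323 UMIs) are used, since they should lack most of these genes.

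Of the 9 genes, 5 lie on chromosome 4 (Tnfrsf4, Tnfrsf9, Tnfrsf18, Tnfrsf1b and Tnfrsf25), Cd28 and Icos on chromosome 1, Cd27 on 6 and Cd40lg on X (RefSeq, GRCm38.p6). Tnfrsf4 (156013595 to 156016613) and Tnfrsf18 (156026322 to 156028894) are 9708 bases apart, with 1 annotated gene between them, Gm25982. Promoters of 250 bases before to 50 after a start were at hand for 6 members. They are shown for Tnfrsf9, Tnfrsf4 and Tnfrsf18, 3 members of chromosome 4 that were all higher in Foxp3+ cells, so that their starts can be compared. Capitals mark matches on either strand to the NF-κB consensus or to the AP-1 site TGANTCA, and forkhead TGTTTAC was also searched. All 4 are on the plus strand: Tnfrsf9 starts 1 and 2 at chr4:150919905-150920204 and chr4:150927749-150928048, Tnfrsf4 at chr4:156013445-156013744 and Tnfrsf18 at chr4:156026072-156026371.
Tnfrsf9 start 1: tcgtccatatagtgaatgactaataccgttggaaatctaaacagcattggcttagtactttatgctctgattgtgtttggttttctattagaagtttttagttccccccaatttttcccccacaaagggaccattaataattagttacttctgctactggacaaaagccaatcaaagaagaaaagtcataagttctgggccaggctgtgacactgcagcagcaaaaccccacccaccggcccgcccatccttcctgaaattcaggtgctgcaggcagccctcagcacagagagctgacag
Tnfrsf9 start 2: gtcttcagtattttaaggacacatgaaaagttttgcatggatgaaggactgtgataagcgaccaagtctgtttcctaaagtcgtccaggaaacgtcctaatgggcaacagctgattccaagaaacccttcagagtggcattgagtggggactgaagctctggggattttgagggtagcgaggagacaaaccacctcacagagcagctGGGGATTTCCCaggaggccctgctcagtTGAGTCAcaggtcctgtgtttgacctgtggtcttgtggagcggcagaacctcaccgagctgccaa
Tnfrsf4: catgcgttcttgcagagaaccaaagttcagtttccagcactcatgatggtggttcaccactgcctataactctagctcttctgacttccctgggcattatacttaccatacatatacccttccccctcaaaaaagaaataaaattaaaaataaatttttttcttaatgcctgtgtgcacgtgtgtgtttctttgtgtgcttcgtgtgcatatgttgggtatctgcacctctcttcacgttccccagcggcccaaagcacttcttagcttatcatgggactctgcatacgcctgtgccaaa
Tnfrsf18: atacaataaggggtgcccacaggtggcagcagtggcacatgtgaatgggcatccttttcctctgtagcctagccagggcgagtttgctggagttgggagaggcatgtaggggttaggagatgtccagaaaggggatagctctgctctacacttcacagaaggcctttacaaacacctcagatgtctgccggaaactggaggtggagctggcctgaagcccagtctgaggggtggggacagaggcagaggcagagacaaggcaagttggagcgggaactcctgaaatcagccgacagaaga
Of the 8 promoters of the 6 members, the second start of Tnfrsf9 alone held matches. These were 2 overlapping NF-κB matches beginning at bases -43 and -42 from the start, and 1 AP-1 match, TGAGTCA, at -15. Among 32851 promoters of 27025 genes, 4.51% held the NF-κB consensus, 7.81% the AP-1 site and 3.65% the forkhead site. A match describes the letters only.

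The levels of most members differed by T cell class (the plot of levels by class and day). Tnfrsf4 encodes OX40, a receptor that sustains CD4 T cells. In CD8 cells its contig sets measured 29.2, 30.1, 38.0 and 74.9 CPM at day 13 and 56.0, 38.2, 37.9 and 30.4 at day 19. Foxp3- cells measured 424, 195, 333 and 368 CPM at day 13 and 589, 665 and 687 at day 19, and Foxp3+ cells 1397, 848, 963 and 889, then 1237, 2340 and 1428. On each day the 3 classes did not overlap across sets. A Tnfrsf4 UMI was found in 5.82% and 7.52% of CD8 cells, 41.3% and 63.1% of Foxp3- cells and 85.3% and 92.0% of Foxp3+ cells at day 13 and day 19, against 1.42% and 2.17% of macrophage-like barcodes. Free RNA, read from barcodes of 100 UMIs or fewer, held 183 and 399 CPM of Tnfrsf4, above the CD8 level, while macrophage-like barcodes held 10.3 and 9.35 CPM. Its part in the CD8 level was not tested.

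Tnfrsf9 encodes 4-1BB, which is induced by TCR stimulation. Its level was 127 CPM in CD8 cells and 141 in Foxp3- cells at day 13, and 296 and 310.5 at day 19. Foxp3+ cells stood higher, at 748 CPM (sets 602 to 973) at day 13 and 974 (sets 853 to 1244) at day 19. A UMI was found in 18.6% and 40.4% of CD8, 22.6% and 42.5% of Foxp3- and 72.0% and 86.4% of Foxp3+ cells, against 2.84% and 2.17% of macrophage-like barcodes.

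Tnfrsf18 encodes GITR, a receptor long used to mark regulatory T cells. It measured 164 and 173 CPM in CD8 cells, 334 and 442 in Foxp3- cells and 709 and 895 in Foxp3+ cells at day 13 and day 19. Unlike Tnfrsf4 it was widely detected in CD8 cells too, with a UMI in 49.1% and 53.3% of them, against 6.16% and 4.35% of macrophage-like barcodes. Tnfrsf1b, the TNFR2 receptor of TNF, measured 52.9 and 54.7 CPM in CD8, 56.3 and 79.9 in Foxp3- and 128 and 168.5 in Foxp3+ cells. Macrophage-like barcodes measured 96.2 and 68.6 CPM of Tnfrsf1b and held a UMI in 31.3% and 29.3%, at or above the 21.5% and 22.8% of CD8 cells. Macrophages are known to express this gene, so they give no background for it.

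Tnfrsf25 encodes DR3, the receptor of TL1A. It was scarce in CD8 cells: 2.91% of them at day 13 and 1.46% at day 19 held a UMI, against 16.0% and 18.3% of Foxp3- and 15.3% and 8.80% of Foxp3+ cells and no macrophage-like barcode (0 of 211 and 0 of 92). Cd40lg, the ligand through which helper T cells activate antigen-presenting cells, measured 204 and 192 CPM in Foxp3- cells, 22.2 and 23.7 in Foxp3+ cells and 7.57 and 2.62 in CD8 cells. The Foxp3- sets of Cd40lg lay from 175 to 251 CPM at day 13 and from 162.5 to 223 at day 19, all above the other classes.

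Icos, a CD28 relative on helper and regulatory T cells, followed the order of Tnfrsf4: 87.0 and 68.2 CPM in CD8, 289 and 350 in Foxp3- and 430 and 535 in Foxp3+ cells. Cd28, the main costimulatory receptor of naive T cells, was highest in Foxp3- cells (272 and 248.5 CPM), with 165 and 108 in CD8 and 159.5 and 194 in Foxp3+ cells. Cd27, a receptor of the TNF family that binds CD70, varied least by class and day: 167 and 121 CPM in CD8, 116.5 and 107 in Foxp3- and 187 and 211 in Foxp3+ cells. At day 13 the Cd27 sets of Foxp3+ cells overlapped those of both other classes, and at day 19 they lay above them.

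**Figure D1:**
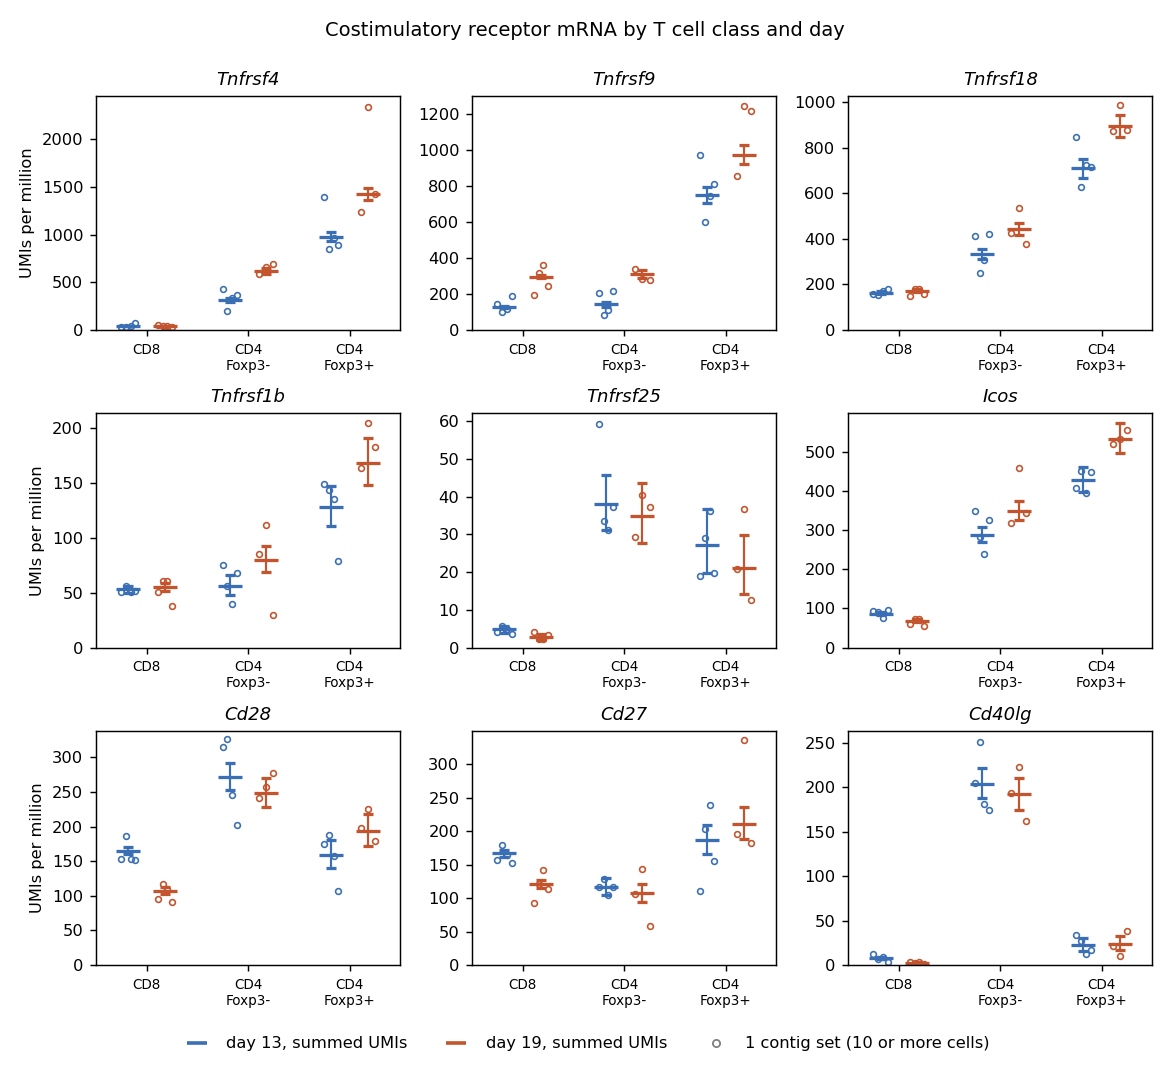
Level of each gene (CPM of summed UMIs, vertical axis) in CD8, CD4 Foxp3- and CD4 Foxp3+ T cells at day 13 and day 19. Dashes are the summed cells of a class with exact 95% Poisson intervals and circles are contig sets of at least 10 cells; Tnfrsf4 climbs from 41.2 CPM in CD8 to 978 in Foxp3+ cells at day 13, while Cd40lg is high only in Foxp3- cells.

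Foxp3+ were compared with Foxp3- CD4 cells over both days. Of the 9 members 6 were higher, where 9.71% of 8968 genes tested were called higher, and 2 were lower, where 6.59% were called lower. Tnfrsf9 had the widest difference upward, 857 against 216 CPM, a log2 ratio of 1.99 (1.89 to 2.09). It was followed by Tnfrsf4 at 1.41 (1.34 to 1.49), Tnfrsf1b at 1.14 (0.94 to 1.35) and Tnfrsf18 at 1.07 (0.98 to 1.15), and each of the 4 was higher in all 8 sets. Cd27 was higher at 0.82 in 7 of 8 sets and Icos at 0.61 in all 8. Cd40lg was lower by far, with 70 against 1031 UMIs and a ratio of -3.12 (-3.49 to -2.77), in all 8 sets. Tnfrsf25 was lower at -0.60 (-1.01 to -0.20) in 7 of 8 sets, and Cd28, at -0.57 in all 8, was not called. Markers of other cells differed between the classes too. The 5 dendritic markers summed to 557 and 72.4 CPM in Foxp3+ and 306 and 60.7 in Foxp3- cells at day 13 and day 19, most of it Fscn1 at day 13, and the 4 B and plasma cell markers to 265 and 0 and to 46.3 and 15.7. The 7 macrophage markers summed to 203 and 139 and to 137 and 170, and both neutrophil markers were at 0. Their part in these ratios was not tested. The calls of Icos and Tnfrsf25 lie at the 1.5-fold line: over 20 alternatives and left-out sets each, Icos ran from 0.48 to 0.75 and kept its call in 13, and Tnfrsf25 from -0.94 to -0.26 and kept it in 10. Icos lost it without day 13 set 3 (0.57) or day 19 set 2 (0.56), and Tnfrsf25 without day 13 set 1 (-0.47) or set 4 (-0.56) or day 19 set 1 (-0.56) or set 4 (-0.52), while Cd28 passed the line in 7 of 20, down to -0.77 at day 13 alone, among them without day 19 set 2 (-0.69) or set 3 (-0.60).

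Foxp3- CD4 cells were next compared with CD8 cells. Here 6 members were higher, against 14.4% of 11218 genes tested, and none was lower, against 10.1%. Cd40lg was highest at 5.15 (4.94 to 5.37), a 35.5-fold difference, then Tnfrsf4 at 3.48, Tnfrsf25 at 3.21, Icos at 1.99, Tnfrsf18 at 1.19 and Cd28 at 0.88, each in all 8 sets. The 3 members not called were Tnfrsf1b at 0.32, Tnfrsf9 at 0.15 and Cd27 at -0.40. Cd40lg was thus higher in Foxp3- cells than in either other class, whereas Tnfrsf4, Tnfrsf18 and Icos stood between CD8 and Foxp3+ cells there. The call of Cd28 ended only with no limit on myeloid UMIs, at 0.56, among 20 alternatives and left-out sets.

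**Figure D2:**
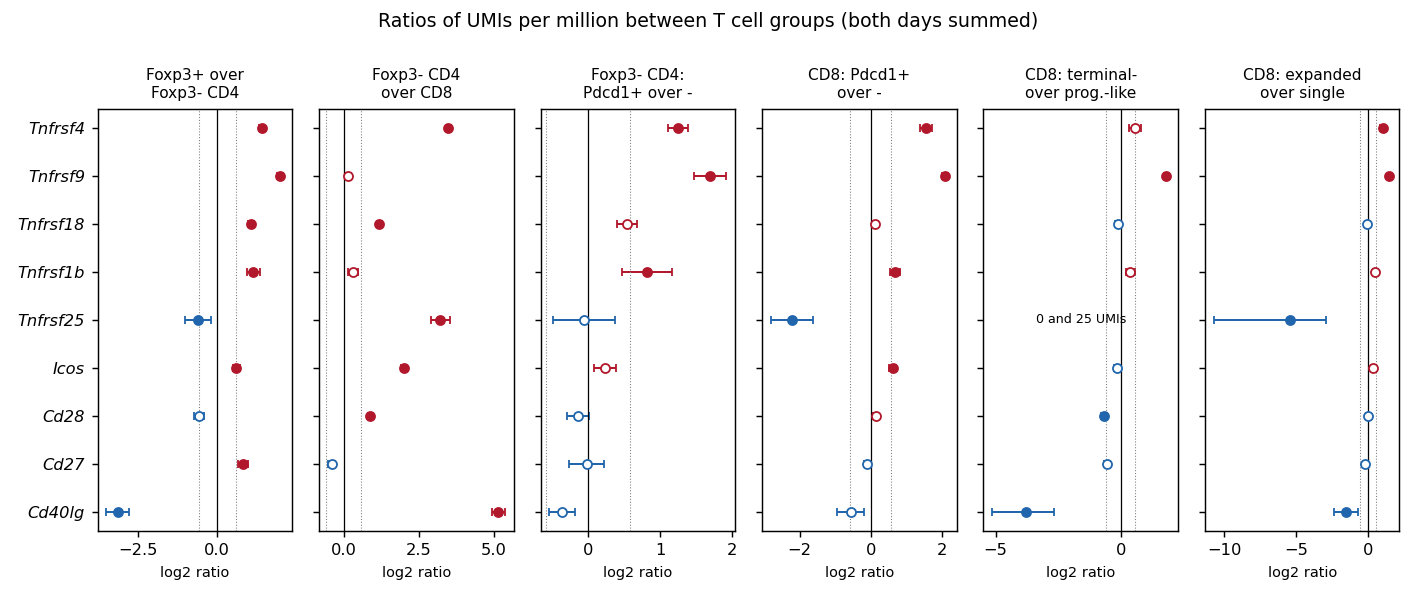
Log2 ratio of summed CPM (horizontal axis) for each gene in 6 comparisons of T cell classes, CD8 states and clone sizes, with exact 95% Poisson intervals. Filled points differ at least 1.5-fold (dotted lines); Tnfrsf9 is filled on the higher side in 5 of the panels and not in Foxp3- against CD8 cells, where it stands at 0.15.

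Within CD8 cells, states were defined by UMIs of Pdcd1 (the PD-1 checkpoint), Tcf7 (the TCF1 factor of progenitor exhausted cells) and Havcr2 (TIM-3, of terminally exhausted cells). Progenitor-like cells were Pdcd1+ Tcf7+ Havcr2- (428 at day 13 and 143 at day 19), and terminal-like cells Pdcd1+ Havcr2+ Tcf7- (222 and 348). Terminal-like cells made up 8.39% (7.36 to 9.51) of CD8 cells at day 13 and 24.2% (22.0 to 26.5) at day 19, and after thinning 4.99% and 13.2%. Terminal-like cells were deeper, with medians of 12958 and 12155.5 UMIs against 7714 and 11118 in progenitor-like cells, and 51.7% and 44.6% of thinned macrophage-like barcodes held a Havcr2 UMI. Dendritic markers, mostly Fscn1, summed to 221 and 129 CPM in progenitor-like and 125 and 16.1 in terminal-like cells at day 13 and day 19, and Ttr, a choroid plexus gene, stood at 385 CPM in terminal-like and at 0 in progenitor-like cells of day 19, with Sox2 and Olig2 at 0 in both. The part of depth, beyond thinning, and of these markers in the results by state was not tested.

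Pdcd1+ CD8 cells had higher Tnfrsf9, 301 against 71.0 CPM (2.08, 2.00 to 2.17), and higher Tnfrsf4, 57.6 against 19.7 (1.55, 1.38 to 1.72). Tnfrsf1b was higher at 0.68 and Icos at 0.62, so 4 members were called higher, where 15.8% of 10979 genes were. Tnfrsf25 was lower at -2.21 (-2.82 to -1.64), the single member among the 7.63% of genes called lower. All 5 differences held in each of the 8 sets. Tnfrsf18, Cd28 and Cd27 lay within 0.15 of 0 on the log2 scale, and Cd40lg, at -0.57, was not called. Tnfrsf1b lost its call when ratios were centred on the median gene (0.56) and at day 13 alone (0.52), and Icos in 5 of 20 alternatives and left-out sets, among them without day 13 set 3 (0.55). Cd40lg was called lower without day 13 set 3 (-1.08) or set 4 (-0.69) or day 19 set 4 (-0.62).

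Terminal-like were compared with progenitor-like CD8 cells for 8 members with enough UMIs. Progenitor-like cells were mostly of day 13 and terminal-like cells mostly of day 19, so sums over both days mix state with day. In these sums Tnfrsf9 was higher, 497 against 139 CPM, at 1.83 (1.73 to 1.94) in all 8 sets, the 1 member called where 9.66% of 9577 genes were higher. By day it measured 343 against 114 CPM at day 13 and 608 against 195 at day 19. Cd28 was lower at -0.67 (-0.80 to -0.55) in all 8 sets and Cd40lg at -3.77 (7 against 70 UMIs), which makes 2 called where 12.1% of genes were lower. By day Cd28 measured 140 against 212 CPM at day 13 and 101 against 132 at day 19. Tnfrsf4, at 0.58 (0.35 to 0.82), was higher in all 8 sets but under the 1.5-fold line. On each day alone it passed the line (0.68 and 0.84), and it did so in 10 of 20 alternatives and left-out sets, among them without day 13 set 2 (0.72) or set 3 (0.73) or day 19 set 2 (0.72) or set 4 (0.60). Tnfrsf25 had 0 UMIs in terminal-like cells of both days against 25 in progenitor-like cells. With the 0 set at 3 counts, its log2 ratio was -3.50, an 11.3-fold difference. This value takes the 25 UMIs as exact, without their counting error, so it is not a limit on the difference. Tnfrsf25 had too few UMIs in both sums together to be called. The lower Cd28 ended as a call at day 19 alone (-0.39) and at a minimum of 8000 UMIs (-0.55), and Cd40lg was -4.40 without day 13 set 2.

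Tnfrsf9 formed steps across the CD8 states on both days (the plot by state and clone size). At day 13 it measured 66.1 CPM in Pdcd1- cells, 114 in progenitor-like cells, 120 in Pdcd1+ cells with neither Tcf7 nor Havcr2, and 343 in terminal-like cells. At day 19 the same states measured 79.6, 195, 360 and 608 CPM. The terminal-like sets (311 to 395, then 540 to 782 CPM) lay above the progenitor-like sets (90.1 to 139, then 156 to 261) on both days. The sets of the middle states overlapped. Tnfrsf4 did not follow these steps: it measured 24.1, 43.9, 49.8 and 70.3 CPM at day 13 but 11.9, 27.3, 85.0 and 49.0 at day 19. The few Pdcd1+ cells with both Tcf7 and Havcr2 (42 and 12) had the highest Tnfrsf4 of the CD8 states, 125 and 206 CPM, with 18.2 and 327 in the 2 day 13 sets of at least 10 such cells, and 221 and 301 CPM of Tnfrsf9.

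Clones were cells of 1 contig set with identical receptor sequences. CD8 cells of clones with 3 or more cells were compared with clones of 1 cell. Tnfrsf9 was higher in the expanded clones, 331 against 118 CPM (1.49, 1.41 to 1.58), and Tnfrsf4 was higher, 60.5 against 29.5 (1.04, 0.86 to 1.22), both in all 8 sets. These were 2 higher members, where 11.7% of 10424 genes were higher. Tnfrsf25 was lower, with 1 UMI against 97 (-5.40, -10.7 to -2.89), and Cd40lg was lower, with 15 against 97 UMIs (-1.50, -2.39 to -0.70), where 9.14% of genes were lower. Tnfrsf25 was -3.58 without day 19 set 2 and -4.62 without day 13 set 2, and Cd40lg -2.67 without day 13 set 2 and -0.22, no longer called, at a minimum of 2000 UMIs. Tnfrsf1b, at 0.50, was called without day 13 set 2 (0.61).

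Clones of 1, 2, 3 to 9 and 10 or more CD8 cells measured 111, 127.5, 257 and 149 CPM of Tnfrsf9 at day 13 and 129, 387, 416.5 and 622 at day 19. At day 13 the level was highest at 3 to 9 cells, and at day 19 at 10 or more. The day 19 intervals of clones of 2 (339 to 439) and of 3 to 9 cells (381 to 454) overlapped, and set 2, the one day 19 set with a value at each size, measured 105, 459, 313 and 537 CPM. Tnfrsf4 over the same sizes measured 33.0, 21.7, 80.0 and 33.7 CPM at day 13 and 23.4, 127, 56.8 and 69.1 at day 19, so at day 13 clones of 10 or more cells (26.7 to 42.1) stood at the level of single ones. Within terminal-like cells alone, the Tnfrsf9 ratio of expanded over single clones was -0.50 (-0.69 to -0.31) at day 13 and 0.85 (0.63 to 1.08) at day 19. This difference between the days was not tested. It rests on few single-clone cells, 45 and 39: at day 13 the sets with at least 10 of them went opposite ways, with 309 CPM in expanded and 429.5 in single clones of set 2 and 397 and 317 in set 3, and at day 19 set 2 alone gave both sides. Within progenitor-like cells of both days, expanded clones had higher Tnfrsf4, 77.3 against 16.8 CPM (a log2 interval of 1.62 to 2.78). This rests on few cells. After thinning, a Tnfrsf4 UMI was found in 4 of 59 expanded and 7 of 200 single-clone cells at day 13. At day 19 it was found in 1 of 11 and 6 of 92. The Tnfrsf9 ratio of these expanded over single clones was 0.59 (0.23 to 0.94) at day 13 and -0.65 (-1.45 to 0.05) at day 19, where 11 cells were expanded. The day 13 sets with both sides went opposite ways, with 214.5 CPM in expanded and 96.3 in single clones of set 2 and 77.0 and 138 in set 3.

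All 8 clones of 20 or more cells were CD8. The 3 of day 19 measured 375, 748 and 883 CPM of Tnfrsf9, and 65.2% to 86.8% of their cells were terminal-like. The 5 of day 13 measured from 24.6 to 273 CPM. The highest of these, a clone of 30 cells, was 96.7% terminal-like, and the clones at 24.6 and 50.6 CPM were 5% and 0% terminal-like. Cd27 ranged from 60.3 to 399 CPM among the day 13 clones, and none of the 8 had a Tnfrsf25 UMI.

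**Figure D3:**
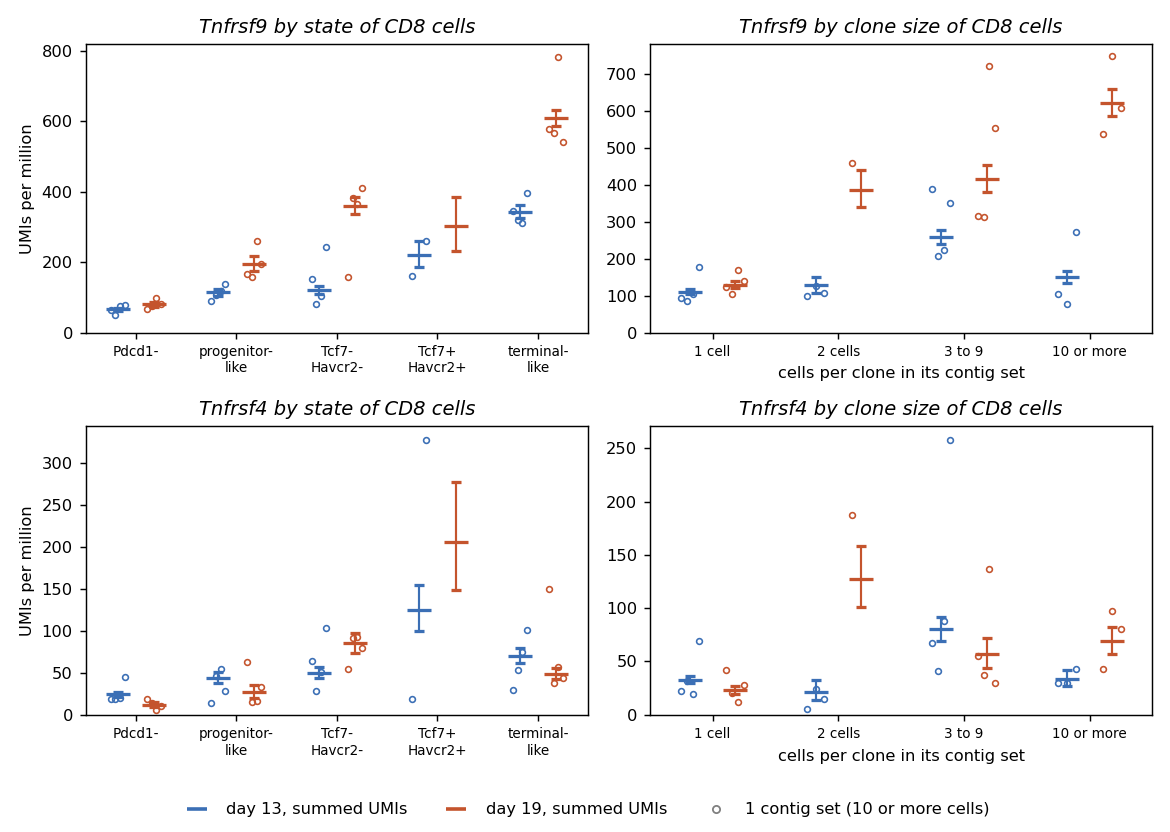
Levels of Tnfrsf9 and Tnfrsf4 (CPM, vertical axis) in CD8 T cells by state and by clone size at day 13 and day 19, with exact 95% Poisson intervals and circles for contig sets of at least 10 cells. Tnfrsf9 is highest in terminal-like cells on both days (343 and 608 CPM) and reaches 622 CPM in day 19 clones of 10 or more cells.

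Among Foxp3- CD4 cells, Pdcd1+ were compared with Pdcd1- cells, as far as 7 sets allowed. Tnfrsf9 was higher at 1.69 (1.47 to 1.91) in 6 of 7 sets, Tnfrsf4 at 1.25 (1.11 to 1.39) in all 7 and Tnfrsf1b at 0.81 (0.47 to 1.16) in 6 of 7. These 3 members were called where 8.08% of 7799 genes were higher, and none was lower, against 4.91%. Tnfrsf18, at 0.54, was higher in all 7 sets and not called; it was without day 13 set 4 (0.60) or day 19 set 3 (0.59). Tnfrsf1b lost its call with no limit on myeloid UMIs (0.36) and at 8000 UMIs (0.57). Within Foxp3+ cells the Pdcd1+ cells also measured more Tnfrsf9, 1008 against 534 CPM at day 13 and 1126 against 612 at day 19. Cd40lg was lower in Pdcd1+ Foxp3- cells at -0.36, in 6 of 7 sets, and not called.

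Expanded clones of Foxp3- cells were few, with 6 cells at day 13 and 42 at day 19, and 1 set gave both sides. Single-clone cells numbered 201 at day 13 and 119 at day 19, so sums over both days mix clone size with day. Tnfrsf9 was higher at 0.85 (0.57 to 1.11), 1 member where 10.2% of 6477 genes were higher, and Cd27 was lower, 58.0 against 116 CPM (a log2 interval of -1.62 to -0.43), 1 where 11.7% were lower. The single clone group of 10 or more cells, 15 cells at day 19, had 0 UMIs of Cd27. Tnfrsf9 was 2.16 at day 13, 0.19 at day 19 and 1.502 without day 19 set 2, and Cd27 ran from -2.36 to -0.26 over 22 alternatives and left-out sets. Without day 19 set 2, Tnfrsf25 (-2.13) and Icos (0.73) were called as well.

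Day 19 was compared with day 13 in 5 groups (the plot of day ratios), each 1 capture against 1. In CD8 cells the sets of Tnfrsf9 measured 144, 101, 116 and 187 CPM at day 13 and 193, 314, 359 and 244 at day 19. The days did not overlap, although the highest set of day 13 and the lowest of day 19 were close. The ratio was 1.22 (1.15 to 1.28), the 1 member called where 6.44% of 10979 genes were higher. Day 19 had relatively more terminal-like cells, and with the state shares of day 13 applied to both days the ratio was 0.84. The share of thinned CD8 cells with a Tnfrsf9 UMI was 18.6% (17.2 to 20.2) at day 13 and 40.4% (37.8 to 43.0) at day 19, and without thinning 25.7% and 49.6%. Tnfrsf9 in free RNA was also higher, 372 against 162 CPM, while macrophage-like barcodes held 6.23 and 5.40 CPM. The part of free RNA in the day ratios was not tested.

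Lower members in CD8 cells at day 19 were Cd40lg (-1.53, -2.05 to -1.04), Tnfrsf25 (-0.84, -1.38 to -0.32) and Cd28 (-0.62, -0.70 to -0.54), 3 where 8.41% of genes were lower. Cd28 sets lay from 152 to 187 CPM at day 13 and from 90.5 to 117 at day 19, with no overlap, and Cd40lg sets did not overlap either. Tnfrsf25 sets overlapped, and its call ended at 8000 UMIs (-0.45) and, at -0.58, with exactly 1 TRA and 1 TRB chain. Free RNA held more of both scarce genes than CD8 cells did and was also lower at day 19, with 15.4 and 9.12 CPM of Tnfrsf25 and 38.3 and 26.6 of Cd40lg at day 13 and day 19, and its part was not tested. Cd27 (-0.46) and Icos (-0.35) were lower at day 19 in non-overlapping sets without being called. Tnfrsf4, Tnfrsf18 and Tnfrsf1b, at -0.10, 0.07 and 0.05, were not called. The Cd28 call sat at the line: it ended without day 13 set 2 (-0.51), without day 19 set 4 (-0.56), when centred (-0.58) and without cycling cells (-0.53). Cd40lg was -2.52 with 2 or more coreceptor UMIs.

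In Foxp3- CD4 cells, Tnfrsf4 (0.96, 0.84 to 1.08) and Tnfrsf9 (1.14, 0.96 to 1.31) were higher at day 19, 2 members where 7.31% of 7799 genes were higher and none of the 8.73% called lower. The sets of both overlapped between days when the 7-cell set 1 of day 19 was counted, and without it Tnfrsf9 lay at 84.9 to 215 CPM at day 13 and at 277 to 336 at day 19. Tnfrsf1b, at 0.50, was called without day 13 set 1 (0.61) or day 19 set 4 (0.67). In Foxp3+ cells no member was called, against 9.46% of 6552 genes higher and 10.4% lower. Tnfrsf4 stood at 0.54 (0.45 to 0.64), Tnfrsf1b at 0.40, Tnfrsf9 at 0.38, Tnfrsf18 at 0.34, Icos at 0.32 and Cd28 at 0.28. Cd27 stood at 0.18 and Cd40lg at 0.10, and Tnfrsf25 went the other way, at -0.38. The sets of Tnfrsf18 and Icos did not overlap between days, and those of Tnfrsf1b overlapped only through the 5-cell set 1 of day 19. Without day 19 set 2, Tnfrsf4 reached 0.82 and Tnfrsf9 0.65, and Tnfrsf4 was 0.67 without day 13 set 1, each of which is a call.

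Within states the days differed too. In progenitor-like CD8 cells Tnfrsf9 was higher at day 19 (0.78, 0.58 to 0.98; sets 90.1 to 139 and 156 to 261 CPM), 1 member where 11.1% of 8035 genes were higher. Lower were Cd40lg (-1.46), Tnfrsf4 (-0.69), Cd28 (-0.68) and Icos (-0.63), 4 members where 10.7% of genes were lower, and the sets of Cd28 and Icos did not overlap. In terminal-like cells Tnfrsf9 was the 1 member higher (0.82, 0.73 to 0.92), where 5.18% of 8579 genes were, and none was lower, against 9.42%. The Tnfrsf9 sets did not overlap, and it kept its call in all 18 alternatives and left-out sets. The Tnfrsf4 difference in progenitor-like cells turned to 0.05 with no limit on myeloid UMIs and was not called without day 13 set 3 (-0.48), day 19 set 2 (-0.41) or day 19 set 3 (-0.48), and Cd40lg was -2.06 without day 13 set 2. Tnfrsf9 there ended as a call with 0 myeloid UMIs (0.39) and without cycling cells (0.36), and in terminal-like cells Tnfrsf4, at -0.52, was called without day 13 set 1 (-0.65) or set 2 (-0.65) or day 19 set 1 (-0.72) and Cd28, at -0.47, without day 19 set 2 (-0.65). Cd27 in progenitor-like cells, at -0.57, was called without day 13 set 3 (-0.65) or day 19 set 3 (-0.69).

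**Figure D4:**
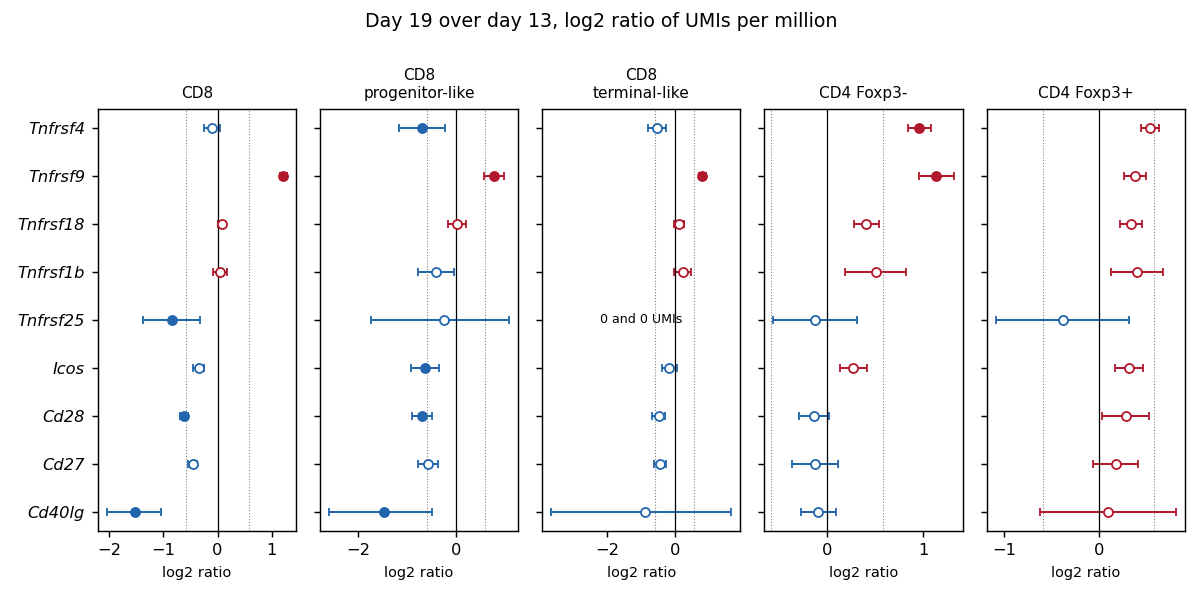
Log2 ratio of day 19 over day 13 (horizontal axis, CPM of summed UMIs) for each gene in 5 groups of T cells, with exact 95% Poisson intervals. Filled points differ at least 1.5-fold (dotted lines); Tnfrsf9 is filled in every group except Foxp3+ cells, where it stands at 0.38, and each day is 1 capture.

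The members were found together to different extents. The median thinned CD8 cell held UMIs of 2 members on both days, the median Foxp3- cell 4 at day 13 and 5 at day 19, and the median Foxp3+ cell 5 and 6. Cells with 5 or more members made up 5.37% and 6.13% of CD8, 36.4% and 52.4% of Foxp3- and 65.3% and 76.8% of Foxp3+ cells. In CD8 cells Tnfrsf4 and Tnfrsf9 were found together in 83 cells at day 13, where the product of their shares gives 28.7, and in 74 against 43.6 at day 19. In Foxp3+ cells the numbers were 97 of 150 cells against 92.2 and 101 of 125 against 99.4. Tnfrsf25 and Cd27 were found together in fewer CD8 cells than that product at day 13, 27 against 40.9. These counts carry no test, and cells of a capture share free RNA and vary in RNA content.

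Across 12 summed profiles (6 classes or states on 2 days), the gene with a pattern most like that of Tnfrsf4 among 7328 genes was Icos, with a Pearson r of 0.98, followed by Apaf1 (0.97). For Tnfrsf9 they were Itgav (0.96), Tigit (0.955) and Capg (0.94), for Tnfrsf18 Serp1, Itgb8 and Lrrc32 (0.98, 0.98 and 0.97), and for Tnfrsf1b Il2ra, Ctla4 and Agfg1 (each 0.95). Tnfrsf25 was most like Tnfaip8l2, Sgms1 and Rgs10 (0.98, 0.98 and 0.97), Icos like Tnfrsf4, Maf and Tspan32 (0.98 each), and Cd40lg like Tnfaip8, Cry1 and Elmo1 (0.98, 0.96 and 0.96). Cd28 was most like Sh3kbp1, S1pr4 and Gabarapl2 (0.97, 0.95 and 0.95), and Cd27 like Ifngr1, Gimap7 and Wars (0.92, 0.88 and 0.88). Among the members, Tnfrsf9 and Tnfrsf1b had an r of 0.90, Tnfrsf9 and Cd40lg -0.16, and Cd28 and Cd40lg 0.92. The profiles share libraries and T cell lineage, so these values only describe the order of the levels.

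Antibody tags for 5 members gave a second readout, in counts per 10000 tag counts of a cell. The GITR tag (CD357) followed Tnfrsf18 RNA: its median was 8.65 and 11.5 in CD8, 10.2 and 16.6 in Foxp3- and 18.7 and 44.0 in Foxp3+ cells at day 13 and day 19, against 6.80 and 7.21 in macrophage-like barcodes. Within Foxp3- cells of day 19 the median was 9.53 with 0, 14.04 with 1 to 3 and 25.5 with 4 or more Tnfrsf18 UMIs. The ICOS tag (CD278) differed less, with day 19 medians of 135 in CD8, 147 in Foxp3-, 162 in Foxp3+ cells and 128 in macrophage-like barcodes. At day 13 its classes overlapped. Over bins of 0, 1 to 3 and 4 or more Icos UMIs, its medians then lay from 144 to 148 in CD8, 141 to 147 in Foxp3- and 139 to 150 in Foxp3+ cells. The tags of OX40 (CD134), 4-1BB (CD137) and CD27 did not separate the classes: at day 13 the CD134 median was 385 in CD8 and 379 in Foxp3+ cells, and 377 in macrophage-like barcodes. A Foxp3+ mean of 533 for CD134 at day 13 drew 32.2% of its counts from 1 cell. Because these tags stood as high in macrophage-like barcodes, no protein difference can be read from them here, and the CD8a tag also differed little, with medians from 18.3 to 22.6.

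**Figure D5:**
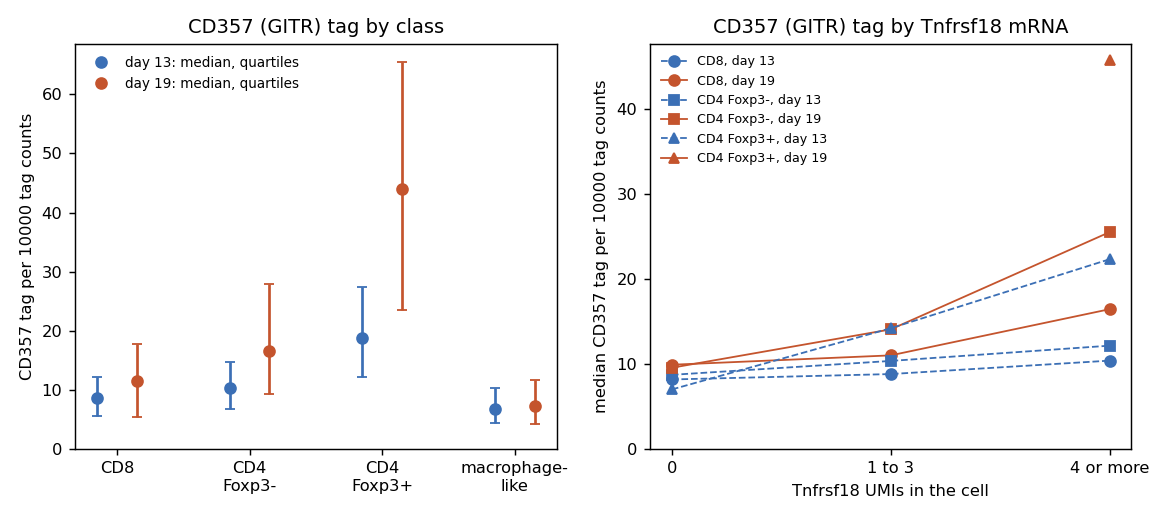
GITR tag (CD357) counts per 10000 tag counts of a cell (vertical axis), as medians with quartiles, by T cell class and day and by the number of Tnfrsf18 UMIs. The median is 44.0 in Foxp3+ cells of day 19 against 11.5 in CD8 cells, and it climbs with Tnfrsf18 UMIs in CD8 and Foxp3- cells on both days and in Foxp3+ cells of day 13; in Foxp3+ cells of day 19 only the bin of 4 or more UMIs held at least 10 cells.

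Of 28 signalling genes (TRAF adaptors, NF-κB subunits and regulators, and CD28 pathway kinases), none was higher and 3 were lower in Foxp3+ than in Foxp3- cells, among them Prkcq (-1.09), where 9.71% of all genes were higher and 6.59% lower. The median was 0.08, against 0.03 over all genes tested. In Foxp3- against CD8 cells 11 were higher, led by Rel (0.93), Nfkb1 (0.88) and Bcl2l1 (0.82), and none was lower, with a median of 0.35 against 0.09, where 14.4% of all genes were higher and 10.1% lower. By Pdcd1 in CD8 cells none was called, where 15.8% of all genes were higher and 7.63% lower, and by clone size none, where 11.7% were higher and 9.14% lower. By state, 6 were lower in terminal-like than in progenitor-like cells, among them Rel (-0.91), Map3k14 (-0.83) and Birc3 (-0.66), where 12.1% of all genes were lower. Rel encodes an NF-κB subunit and Map3k14 the kinase NIK. At day 19, 6 were lower in CD8 cells (Tnfaip3 -0.68, Map3k14 -0.66, Birc3 -0.63) and 5 in Foxp3+ cells (among them Relb -1.12 and Birc3 -0.64), and none was higher in either. Of all genes, 8.41% were lower and 6.44% higher in CD8 cells and 10.4% lower and 9.46% higher in Foxp3+ cells. In Foxp3- cells 4 were lower and 1 higher at day 19, against 8.73% and 7.31% of all genes. In progenitor-like cells 7 were lower and none higher, against 10.7% and 11.1%, and in terminal-like cells 3 lower and 1 higher, against 9.42% and 5.18%.

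Of 11 listed ligands, 9 could be tested in CD8 cells, and 6 of these were higher in Pdcd1+ cells, where 15.8% of all genes were, led by Cd70 (56 against 4 UMIs, 3.59), Tnfsf4 (65 against 6, 3.22) and Cd80 (1.63). Cd70 is the ligand of CD27 and Tnfsf4 that of OX40. By Pdcd1 in Foxp3- cells, 2 of 7 were higher and 3 lower, where 8.08% of all genes were higher and 4.91% lower. The lower ones were Icosl (-1.16), Cd40 (-1.13) and Cd86 (-0.87), of which Cd40 (0.84) and Cd86 (0.96) were higher in Pdcd1+ CD8 cells. At day 19, 5 of 7 were lower in Foxp3+ cells (10.4% of all genes), led by Cd40 (-2.17), Tnfsf9 (-1.68) and Cd86 (-1.27), and 4 of 9 in CD8 cells (8.41% of all genes), led by Cd40 (-1.78). In Foxp3- cells 4 of 7 were lower (8.73% of all genes), led by Cd40 (-1.88), and Lta was higher (0.89). Cd40 and Cd86 are typical of antigen-presenting cells. Dendritic markers, summed as above, measured 149 and 54.0 CPM in CD8 cells at day 13 and day 19 and were also lower at day 19 in both CD4 classes. Their part in the ligand and signalling values and in the day ratios was not tested.

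Among other receptors of both families, Ctla4, the inhibitory relative of Cd28, was higher in Foxp3+ than in Foxp3- cells (1.56), with Ltbr (1.25) and Tnfrsf13b (1.17), and 5 of 9 tested were higher, where 9.71% of all genes were. Pdcd1 was lower (-0.75). Ctla4 was also higher in Pdcd1+ CD8 cells (1.81). There 3 of 13 tested were higher, among them Pdcd1, which defined the split. Lower were 5, led by Tnfrsf10b (-2.17) and Tnfrsf26 (-1.43), where 15.8% of all genes were higher and 7.63% lower. Fas, a death receptor, was lower in terminal-like than in progenitor-like cells (-2.68, 48 against 226 UMIs) and in CD8 cells at day 19 (-1.24). Tnfrsf26 (-3.74) and Btla (-2.07) were also lower in terminal-like cells, where 5 of 8 were lower, against 12.1% of all genes. The other way went 2 of the 8, Pdcd1 (0.74) and Ctla4 (0.62), where 9.66% of all genes were higher.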

How the data were processed

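Per the file headers, the deposited matrices give unnormalized UMI counts of genes and tags, for 736611 barcodes at day 13 and 735849 at day 19, unfiltered, with 138 antibody tags and 4 multiplexing tags. The submitters' processing notes name bcl2fastq 2.20, Cell Ranger 4.0.0, STAR 2.7.5c, Seurat, R 4.1.2 and mm10, with no role or order. The deposited TCR tables list contigs with UMI counts. Of 8359 and 4295 contig barcodes, 4632 and 3215 had 5000 UMIs; the mitochondrial filter removed none of these and the myeloid limit left 3775 and 2159. No doublet caller was run; the limit on myeloid UMIs, the single coreceptor and, as an alternative, exactly 1 TRA and 1 TRB chain stood in for one.

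Counts were summed per class, state, clone size and day with Python 3.11.15, numpy 2.4.6, pandas 2.3.3 and scipy 1.17.1, and compared as CPM with exact 95% Poisson-ratio intervals, with no test, since each day is 1 sample. A sum of 0 was set to 3 counts. Shares have exact binomial (Clopper-Pearson) intervals. The named genes were the 9 members, at most the 3 highest and 3 lowest of each list with 50 UMIs or more, and the 3 genes most alike by Pearson r of log2(CPM + 1) among genes with at least 10 CPM on average. Some genes that this rule names are not reported here. Members and lists were chosen with earlier results of these data known. The calling rule was run on simulated Poisson counts, drawn from the model that the intervals assume. The simulation held no spread between cells, clones or sets, so it cannot show how the rule behaves under such spread. Alternatives were other UMI minimums, myeloid limits, coreceptor and chain rules, cycling cells left out, thinned states, centring, equal weight of sets, other folds, single days and each set left out.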

Additional observations from a re-analysis of the deposited data

Results flagged for a closer look

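Cd28 in CD8 cells of day 13 measured 186.7 CPM in contig set 2, while the other 3 sets lay close together, at 154, 154 and 152 CPM. This was the only 1 of 36 groups of 4 sets in which a set stood so far from the others; chance marks about 1 in 20 such groups.

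The Icos ratio of day 19 over day 13 was -0.35 in CD8 cells and 0.32 in Foxp3+ CD4 cells, and neither reached 1.5-fold. All CD8 sets of day 19 lay below those of day 13 (54.1 to 73.8 against 76.5 to 95.4 CPM), and all Foxp3+ sets of day 19, its 5-cell set included, lay above (520.5 to 652 against 395 to 453). The difference between the classes was not tested.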

How the results depend on the processing

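No paired analysis was possible because each day is 1 capture, the labels give no replicate numbers that the days share, and contig sets are not known to be replicates; classes, states and clone sizes of the same capture were set side by side within sets as counts only. Of 1372 member ratios recomputed under other settings, 1054 stayed inside their counting interval, 315 left it without reversing a call and 3 reversed a called ratio. Of 830 with a set left out, 772 stayed inside and 0 reversed. Of 160 counts of called members, 26 changed by over 1.5 times. In Foxp3- expanded clones (2 called), 1 was called at 2000 UMIs, with at least 2 coreceptor UMIs, without cycling cells, with equal weight of sets, at day 19 only and with clones of 2 or more, 0 with thinned states and at 2-fold, and 5 at day 13 only. In Foxp3+ cells by day (0 called), 1 was called at 2000 UMIs, with no myeloid limit, with thinned states and with equal weight, and 2 without cycling cells. CD8 expanded clones (4) gave 2 at 8000 UMIs. Progenitor-like cells by day (5) gave 3 at 8000 UMIs, 2 without cycling cells and 1 at 2-fold. Terminal-like cells by day (1) gave 2 with 0 myeloid UMIs, 3 without cycling cells, 0 at 2-fold and 2 with no minimum above 3 UMIs. At 2-fold, Foxp3+ against Foxp3- gave 5 (8), CD8 Pdcd1 3 (5), CD8 by day 2 (4) and Foxp3- by day 1 (2).

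The reversed ratios were Tnfrsf4 by day in progenitor-like cells, 0.0476 with no myeloid limit and 0.0031 with exactly 1 TRA and 1 TRB chain, and Tnfrsf9 in Foxp3- expanded clones, -0.0551 with clones of 10 or more. The causes were not tested. With each set left out, called members ranged from 7 to 9 in Foxp3+ against Foxp3-, 6 to 6 in Foxp3- against CD8, 5 to 6 and 3 to 4 by Pdcd1 in CD8 and Foxp3- cells, 3 to 4 in terminal-like against progenitor-like, 4 to 5 and 2 to 4 in expanded CD8 and Foxp3- clones, and by day 3 to 4 in CD8, 2 to 3 in Foxp3-, 0 to 2 in Foxp3+, 4 to 5 in progenitor-like and 1 to 2 in terminal-like cells. The 4 called in Foxp3- expanded clones came without day 19 set 2, the 2 in Foxp3+ cells without day 19 set 2 (1 without day 13 set 1), and the 2 in terminal-like cells without day 13 set 1 or 2 or day 19 set 1 or 2. Depth limits Tnfrsf25 and Cd40lg in CD8 cells, with under 250 UMIs each in all. Intervals cover counting error only, and mice, captures and days cannot be told apart.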
